A study of Homo sapiens with 10 samples.

Results

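The translation initiation and elongation factors are the proteins that bring messenger RNA, initiator tRNA and ribosomal subunits together and then move the ribosome along the message. The set held every protein-coding gene of the deposited count table whose symbol begins with EIF1, EIF2, EIF3, EIF4, EIF5, EIF6, EEF1 or EEF2. Genes of the EIF2AK kinases, EEF1E1, the EEF1AKMT and EEF2KMT methyltransferases, EIF4ENIF1 and all pseudogenes were taken out by name. This left 54 genes of the 14054 in the table, 47 of them initiation factors or their regulators and 7 elongation factors or their kinase. They were sorted by role into 10 classes. EIF1AD, a nuclear protein known by its EIF1A-like fold and not as an initiation factor, is in the set by its symbol.

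Initiation on most messages starts when the EIF4F complex (the cap-binding protein EIF4E, the scaffold EIF4G and the RNA helicase EIF4A) loads a small ribosomal subunit that already carries EIF1, EIF1A, EIF3, EIF5 and EIF2 with initiator tRNA. Joining of the large subunit follows start codon recognition and needs EIF5B, after which EEF1A delivers each aminoacyl-tRNA and EEF2 moves the ribosome forward by a codon. Cells set this machinery through phosphorylation of EIF2, which blocks its exchange factor EIF2B, and through mTORC1, which controls the 4E-BP inhibitors of EIF4E and the translation of messages that begin with a pyrimidine tract at the cap (TOP messages), among them those of many of these factors.

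RNA came from MRC5 cells, an established line of human lung fibroblasts, in 2 groups of 5 libraries: MRC5 given medium that stretched A549 cells had conditioned (stretch medium; libraries 2, 4, 6, 8 and 10) and MRC5 given medium that A549 cells had conditioned without stretch (static medium; libraries 1, 3, 5, 7 and 9). A549 is an established lung adenocarcinoma line used as a model of alveolar epithelium, so the model holds 1 fibroblast line and 1 tumour-derived source of medium. The exposure time is given as 24 hours in the sample descriptions and as 6 hours in the series design, and it is not settled here. Targeted amplicons of human genes were counted, as whole-number counts per gene. Whether replicate libraries stem from separate cultures is not stated in the labels, and p-values therefore measure only the spread between these libraries, which may be technical.

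Library totals averaged 5948227 counts with stretch medium and 6675921 with static medium (mean, n = 5 each), with 4231653 in the shallowest library (stretch 2) and 8455073 in the deepest (static 3). Levels are given as CPM, counts divided by the scaled size of their library. By plain library totals, 3 counts made 0.355 CPM in the deepest library and 0.709 CPM in the shallowest. Such floors and limits cover counting error only, because amplified reads without molecular identifiers are not independent molecules. All 12 fibroblast markers were present, with summed levels of 14700 to 17167 CPM with stretch medium and 15603 to 17678 CPM with static medium. Of 16 markers of A549 and lung epithelium, 7 were in the table, at summed levels of 43.5 to 50.3 CPM with stretch medium and 35.7 to 47.5 CPM with static medium, and the surfactant genes and NKX2-1 were not among them. The endothelial markers (3 of 4 in the table) summed to 5.24 to 9.04 CPM with stretch medium and 2.19 to 9.51 CPM with static medium, and the leukocyte markers (2 of 4, with PTPRC and CD3E not among them) to 180.1 to 231 CPM with stretch medium and 194 to 205 CPM with static medium, most of it from CD68. Every gene of the deposited table was above 0 in at least 5 libraries, so a gene missing from it was not shown to be at 0. The part of other cells in the results below was not tested.

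No translation factor passed the threshold of an adjusted p of 0.05 for stretch against static medium. Of the 53 factors tested by edgeR's quasi-likelihood test with Benjamini-Hochberg adjustment, 0 passed, as did 0 of 10968 genes in all (0.0%). The smallest adjusted p among the factors was 0.129, for EIF4G1. DESeq2 passed 1 factor, EIF4G1, beside 2.84% of the genes it gave an adjusted p, and limma-voom passed 0 factors beside 0.00912% of genes. At an unadjusted p under 0.05, 7 of the 53 factors (13.2%) were past the line, against 16.4% of all genes tested, so the factors were not set apart from the rest by how many differed. The 7 were EIF4G1 and EIF2B3, higher with stretch medium (8.08% of all genes), and EIF4B, EIF1, EIF3E, EIF4EBP1 and EIF3M, lower with stretch medium (8.37% of all genes). The 5 lower factors became 3 without stretch 2 or without stretch 8, and the 2 higher factors became 1 without any 1 of stretch 2, stretch 6, stretch 8, static 1, static 3, static 5 or static 7. EIF4G1, EIF4B, EIF1 and EIF3E kept an unadjusted p under 0.05 with each of the 10 libraries left out in turn.

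The factors lay close to zero as a group, with 24 above and 29 below and a median log2 fold change of -0.036, beside 0.00 for all genes tested, of which 49.9% were below zero. Class medians ran from -0.17 for the 13 EIF3 subunits to 0.13 for EEF2 and its kinase. Initiation factors and their regulators had a median of -0.069 over 47 genes (20 above zero and 27 below). Elongation factors had a median of 0.025 over the 6 tested (4 above and 2 below). In bulk RNA, a smaller number of cells of a type and less RNA per cell cannot be told apart.

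**Figure D1:**
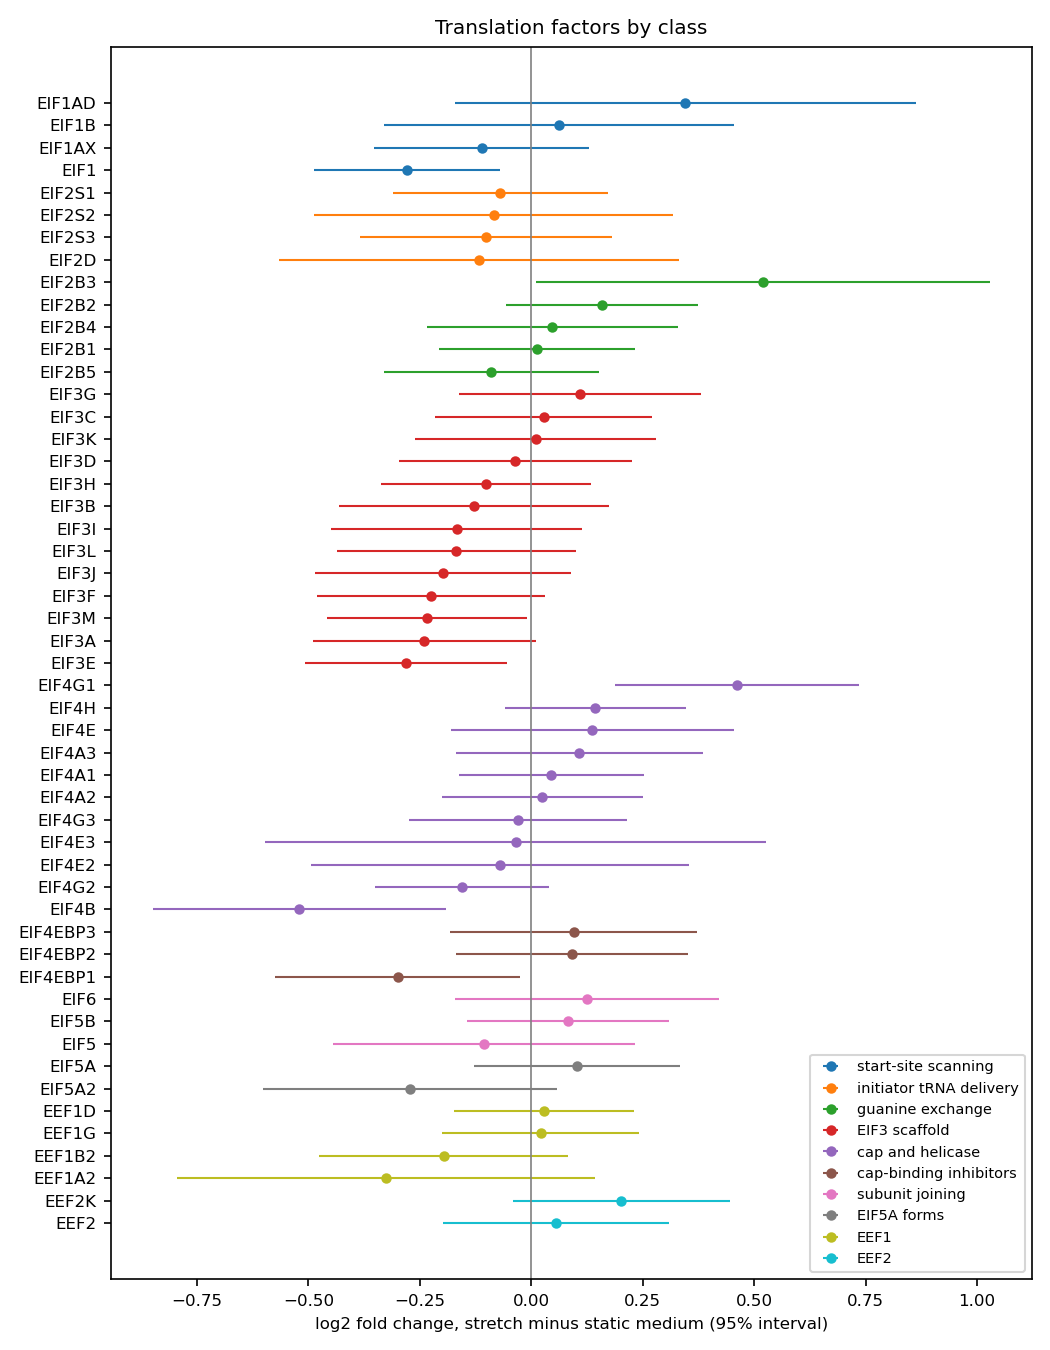
Log2 fold change of each translation factor tested (stretch minus static medium, horizontal axis, with 95% intervals as bars), with genes down the page coloured by role; EIF1AY and the all-or-none EIF2A are not drawn. EIF4G1 at 0.46 and EIF4B at -0.52 stand at opposite ends of one class, and most of the other intervals cross zero.

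The start-site scanning class holds EIF1, which keeps the scanning ribosome open until a start codon is found, with its paralog EIF1B, EIF1AX, EIF1AY and EIF1AD. EIF1 (ENSG00000173812, chr17:41688885-41692668, plus strand, GRCh38) measured 1655, 1867, 1731, 1948 and 1775 CPM with stretch medium (libraries 2, 4, 6, 8 and 10) and 2169, 2046, 2017, 2651 and 2012 CPM with static medium (libraries 1, 3, 5, 7 and 9). Every stretch library was below every static library, and static 7 stood above the other 4 static libraries. Its means were 1795 ± 115 CPM with stretch medium and 2179 ± 271 CPM with static medium (SD, n = 5 each). The log2 fold change was -0.28 ± 0.10 (SE; 95% interval -0.49 to -0.071), with an adjusted p of 0.183 by edgeR's quasi-likelihood test. EIF1 was the only one of the 53 factors whose groups did not overlap, beside 3.72% of all genes tested (1.74% higher and 1.98% lower with stretch medium). The count of factors without overlap became 4 without stretch 4 (EIF3E, EIF5A2 and EIF4G1 were added) and 4 without static 3 (EIF3E, EIF4G1 and EIF4G2 were added). It became 2 without stretch 6 (EIF3M added), without static 1 (EIF2B2 added) and without static 9 (EIF4B added). With 1 library fewer, more genes of any kind lacked overlap: 8.07% of all genes tested without stretch 4, 6.9% without static 3, and 4.51% to 5.3% without any 1 of the other 8 libraries.

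The paralog EIF1B, whose protein is close to EIF1, had 209, 229, 206, 238 and 329 CPM with stretch medium and 298, 316, 166, 219 and 162 CPM with static medium. Its groups overlapped widely, with a log2 fold change of 0.062 ± 0.19. EIF1AX, which binds the small subunit beside EIF1, had 217 ± 22.0 CPM with stretch medium and 234 ± 33.2 CPM with static medium (SD, n = 5 each), a log2 fold change of -0.11 ± 0.11. EIF1AX and EIF1AY are near-identical copies, so their counts are uncertain, and the level of EIF1AY is not given here. EIF1AD had a log2 fold change of 0.35 ± 0.24, with 12.9 ± 2.94 CPM with stretch medium and 10.2 ± 3.43 CPM with static medium (SD, n = 5 each). The class median was -0.094 (2 above zero, 3 below), and its sign was not stable, since it was 0.080 without stretch 6 and 0.042 without static 7.

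Delivery of initiator tRNA rests on the EIF2 trimer, whose alpha subunit EIF2S1 is the site of stress-induced phosphorylation and whose gamma subunit EIF2S3 binds GTP and the tRNA. All 3 subunits had fold changes close to zero. EIF2S3 (chrX:24054716-24077971, plus strand) measured 221, 211, 135, 177 and 195 CPM with stretch medium and 213, 217, 199.6, 219 and 158 CPM with static medium. Stretch 6 was lowest of the 10 libraries and static 9 next, and the groups overlapped. EIF2S3 had a log2 fold change of -0.10 ± 0.13 (adjusted p = 0.742, edgeR's quasi-likelihood test). EIF2S1 had 75.5 ± 5.74 CPM with stretch medium and 79.4 ± 10.6 CPM with static medium, and EIF2S2, the beta subunit, had 35.1 ± 10.4 CPM with stretch medium and 37.0 ± 7.11 CPM with static medium (SD, n = 5 each). EIF2D, which can place initiator tRNA without EIF2, had a log2 fold change of -0.12 ± 0.21. All 5 genes of the class were below zero, with a median of -0.10, or of -0.093 over the 4 other than EIF2A. The value of EIF2A is not read as a difference, and EIF2S1 and EIF2S2 changed sign when some library was left out. None of the 5 had an adjusted p under 0.05.

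EIF2A, a separate single-chain factor that is not part of EIF2, was all or none across the libraries. It was listed at 0 counts in stretch 2, stretch 6 and stretch 8, with 279 counts in stretch 4 and 283 in stretch 10. With static medium it was at 0 in static 3 and static 9, with 281, 377 and 345 counts in static 1, static 5 and static 7. No library held an intermediate count, and both states occurred in both groups. Where it was seen it measured 45.0 to 61.8 CPM, while 3 counts, the most that a count of 0 allows, correspond to less than 1 CPM in every library. Of the 10968 genes tested, 8 (0.0729%) were at 0 in at least 3 libraries and at no less than 10 CPM in all others, and EIF2A was the only factor among them. Genes above 0 in fewer than 5 libraries are not in the table and could not be counted here. Its fitted log2 fold change of -0.59 had a 95% interval of -3.04 to 1.85 and is not read as a difference. EIF2A overlaps SERP1 on the opposite strand, and the use of strand in counting is not given in the sources used here.

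**Figure D2:**
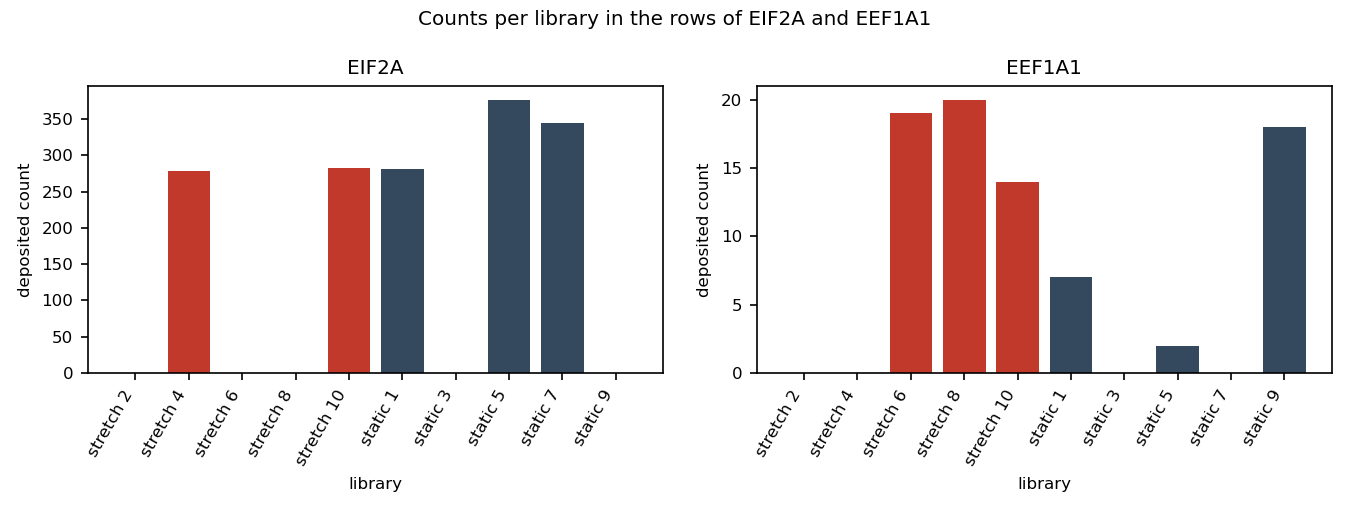
Deposited counts per library (vertical axis) of EIF2A and EEF1A1, with the 5 stretch libraries left of the 5 static libraries. EIF2A was at 0 in 5 libraries and between 279 and 377 counts in the other 5, and EEF1A1 stayed at or under 20 counts in every library.

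EIF2B is the exchange factor that reloads EIF2 with GTP, built from the regulatory subunits EIF2B1, EIF2B2 and EIF2B4 and the catalytic pair EIF2B3 and EIF2B5. EIF2B3 (ENSG00000070785, chr1:44850522-44986722, minus strand) had low levels, at 13.4, 6.54, 12.7, 9.43 and 5.83 CPM with stretch medium and 7.47, 7.31, 5.69, 4.83 and 8.28 CPM with static medium. Stretch 2, stretch 6 and stretch 8 were above every static library, while stretch 4 and stretch 10 lay within the static range. The means were 9.56 ± 3.43 CPM with stretch medium and 6.72 ± 1.41 CPM with static medium (SD, n = 5 each), and the log2 fold change was 0.52 ± 0.24 (95% interval 0.01 to 1.03; adjusted p = 0.294 by edgeR's quasi-likelihood test). EIF2B2 had 74.7, 74.5, 83.5, 73.9 and 82.4 CPM with stretch medium and 78.7, 69.7, 70.1, 63.6 and 66.9 CPM with static medium. For EIF2B2, stretch 6 and stretch 10 were above every static library and the other 3 overlapped them, with a log2 fold change of 0.16 ± 0.10 and an adjusted p of 0.455 (edgeR's quasi-likelihood test). EIF2B5, the main catalytic subunit, lay on the other side at -0.090 ± 0.11. EIF2B1 and EIF2B4 were at 0.013 ± 0.10 and 0.047 ± 0.13, and the class median was 0.047 (4 above zero, 1 below). With 1 library left out that median ran from -0.0034 (without static 9) to 0.11 (without stretch 2).

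EIF3, the largest initiation factor, scaffolds the small subunit and contacts EIF4G. Of its 13 subunits, 10 were lower with stretch medium and 3 were higher (EIF3G, EIF3C and EIF3K), with a median log2 fold change of -0.17 and 0 subunits past an adjusted p of 0.05. The 8 subunits of the structural core (EIF3A, EIF3C, EIF3E, EIF3F, EIF3H, EIF3K, EIF3L and EIF3M) had a median of -0.20 with 6 below zero. The 5 others (EIF3B, EIF3D, EIF3G, EIF3I and EIF3J), which form the module near the mRNA channel or attach at the edge, had a median of -0.13 with 4 below zero. The difference between core and other subunits was not tested.

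EIF3E (ENSG00000104408, chr8:108201216-108435333, minus strand), a core subunit that touches EIF4G, measured 413, 490.0, 368, 415 and 422 CPM with stretch medium and 535, 427, 500.1, 582 and 519 CPM with static medium. Of the stretch libraries, 4 were below every static library, and stretch 4 overlapped static 3. The means were 422 ± 43.7 CPM with stretch medium and 513 ± 56.5 CPM with static medium (SD, n = 5 each), with a log2 fold change of -0.28 ± 0.11 (95% interval -0.51 to -0.055) and an adjusted p of 0.215 by edgeR's quasi-likelihood test. EIF3M (ENSG00000149100, chr11:32583798-32606262, plus strand), another core subunit, had 167, 155, 203, 169 and 154 CPM with stretch medium and 202, 173, 201, 215 and 208 CPM with static medium. Stretch 6 lay inside the static range and the other 4 stretch libraries below it. EIF3M had a log2 fold change of -0.23 ± 0.11 and an adjusted p of 0.284 (edgeR's quasi-likelihood test). EIF3M overlaps CCDC73 on the opposite strand.

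EIF3A, the backbone of the core, had 486, 511, 486, 438 and 501 CPM with stretch medium and 501, 475, 544, 596 and 744 CPM with static medium. The stretch libraries lay in a narrow band, and static 9 was far above it. EIF3A had a log2 fold change of -0.24 ± 0.12, which was -0.13 without static 9. EIF3F, a core subunit with a known tract at its start, was at -0.22 ± 0.12, with 272 ± 42.3 CPM with stretch medium and 318 ± 36.5 CPM with static medium (SD, n = 5 each). EIF3C shares near-identical sequence with EIF3CL, so its counts are uncertain, and its log2 fold change was 0.028 ± 0.12. EIF3K was at 0.010 ± 0.13 and EIF3G at 0.11 ± 0.13.

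Static 7 carried part of the EIF3 pattern. It held the highest level of 7 of the 13 subunits (EIF3E, EIF3M, EIF3J, EIF3L, EIF3B, EIF3C and EIF3K). The mean log2 CPM of the 13 subunits, centred over the 10 libraries, was -0.077, -0.027, -0.13, -0.044 and -0.023 with stretch medium, and 0.035, -0.028, 0.030, 0.24 and 0.022 with static medium. Static 7 stood alone at the top and static 3 lay within the stretch range. Without static 7 the EIF3 median was -0.070.

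**Figure D3:**
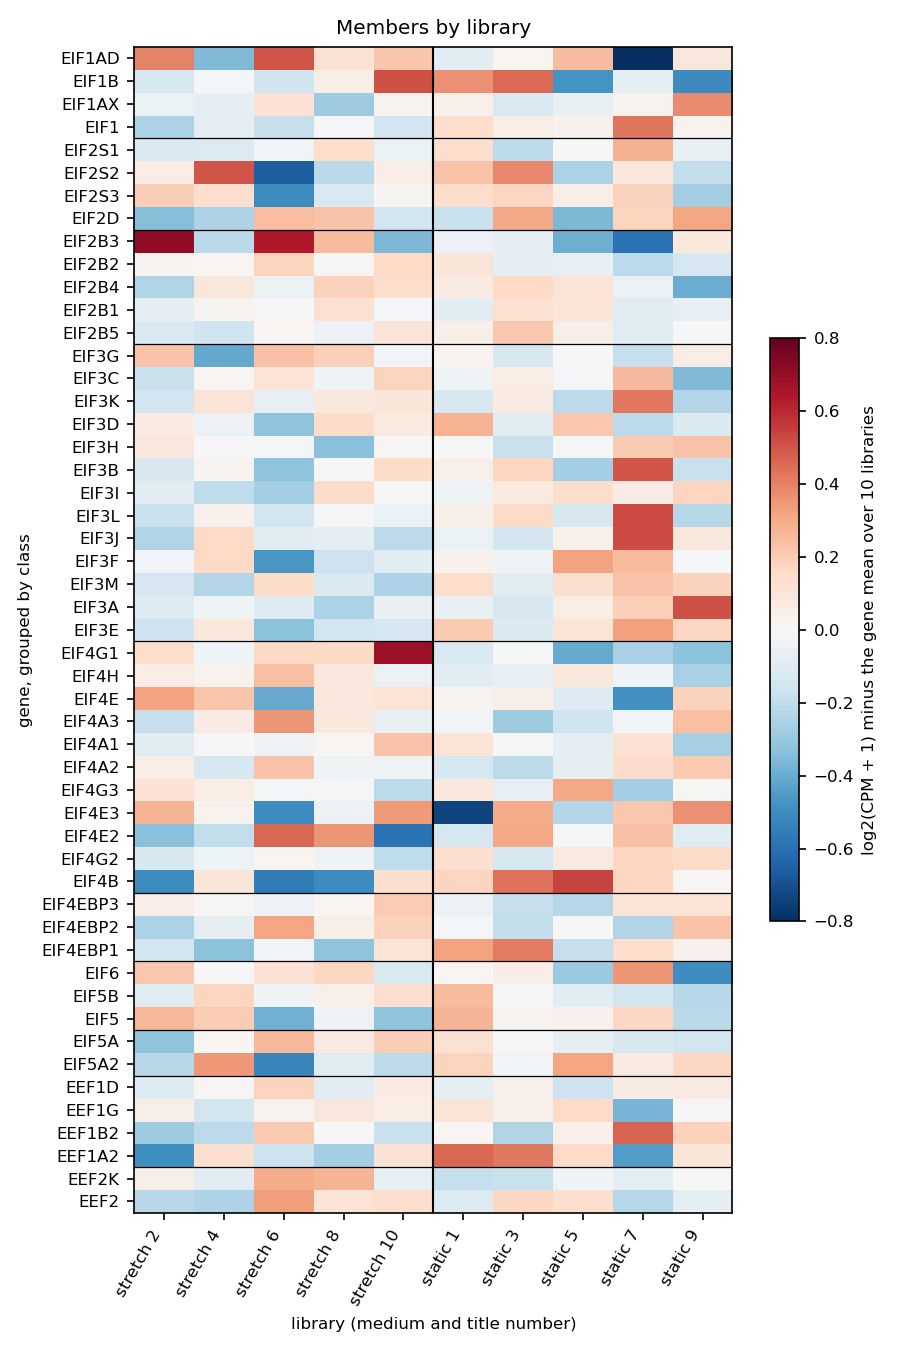
Log2(CPM + 1) of each translation factor tested minus its mean over the 10 libraries (colour), with genes grouped by role down the page and the 5 stretch libraries left of the 5 static libraries. EIF1AY and the all-or-none EIF2A are not drawn. EIF1 is lower in all 5 stretch libraries, and EIF3 subunits are highest in static 7 for 7 of 13 genes.

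The cap and helicase class held the factors with the smallest and second smallest p of the set, on opposite sides of zero. EIF4G1 (ENSG00000114867, chr3:184314495-184335358, plus strand), the scaffold that joins the cap-binding protein, the helicase, EIF3 and the poly(A)-binding protein, measured 1047, 929.9, 1064, 1062 and 1536 CPM with stretch medium and 873, 952, 718, 793 and 759 CPM with static medium. Of the stretch libraries, 4 were above every static library, stretch 4 lay just under static 3, and stretch 10 stood far above the rest. The means were 1128 ± 235 CPM with stretch medium and 819 ± 93.7 CPM with static medium (SD, n = 5 each), a 1.38-fold ratio. The log2 fold change was 0.46 ± 0.13 (SE; 95% interval 0.19 to 0.74), with an adjusted p of 0.129 by edgeR's quasi-likelihood test and of 0.0383 by DESeq2. With 1 library left out in turn the log2 fold change ran from 0.32 (without stretch 10) to 0.52, and its adjusted p was 0.0696 at the smallest. EIF4G1 overlaps no other coding gene in the annotation. Many other factors do, among them EEF1G, EIF4A1 and EIF6 on the same strand. EEF1B2, EIF5A, EIF3A and EIF5B are among those with an overlap on the opposite strand. Whether such overlaps affect the counts was not tested.

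EIF4B (ENSG00000063046, chr12:53006158-53042209, plus strand), an RNA-binding protein that stimulates the helicase EIF4A, had 81.2, 124, 78.0, 81.3 and 126 CPM with stretch medium and 130.3, 156, 169, 130.1 and 116 CPM with static medium. Stretch 2, stretch 6 and stretch 8 lay close together below every static library, while stretch 4 and stretch 10 lay among the lower static ones. The means were 98.0 ± 24.5 CPM with stretch medium and 140.4 ± 21.4 CPM with static medium (SD, n = 5 each), a log2 fold change of -0.52 ± 0.16 (95% interval -0.85 to -0.19). The adjusted p was 0.139 by edgeR's quasi-likelihood test and 0.0556 by DESeq2. The helicase partner EIF4H, which is related to EIF4B and also stimulates EIF4A, was at 0.14 ± 0.10, with 636 ± 47.6 CPM with stretch medium and 576 ± 48.9 CPM with static medium (SD, n = 5 each).

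The helicase itself did not separate the groups. EIF4A1 had 2455, 2613, 2561, 2626 and 3061 CPM with stretch medium and 2812, 2615, 2470.3, 2835 and 2176 CPM with static medium. Stretch 10 was the highest and static 9 the lowest library, and the groups overlapped. EIF4A1 had a log2 fold change of 0.045 ± 0.10 (adjusted p = 0.859, edgeR's quasi-likelihood test), which was -0.011 without stretch 10 and also -0.011 without static 9. EIF4A2, a close paralog with which EIF4A1 shares near-identical stretches, was at 0.025 ± 0.11. EIF4A3, an RNA helicase of the exon junction complex, was at 0.11 ± 0.13. The cap-binding protein EIF4E had 76.0, 71.0, 45.7, 64.6 and 65.7 CPM with stretch medium and 61.8, 62.7, 56.4, 43.1 and 69.3 CPM with static medium. Its groups overlapped, with a log2 fold change of 0.14 ± 0.15. The scaffold relatives EIF4G2, which lacks the EIF4E-binding part, and EIF4G3 were at -0.16 ± 0.092 and -0.030 ± 0.12. The class median was 0.025 (6 above zero, 5 below).

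**Figure D4:**
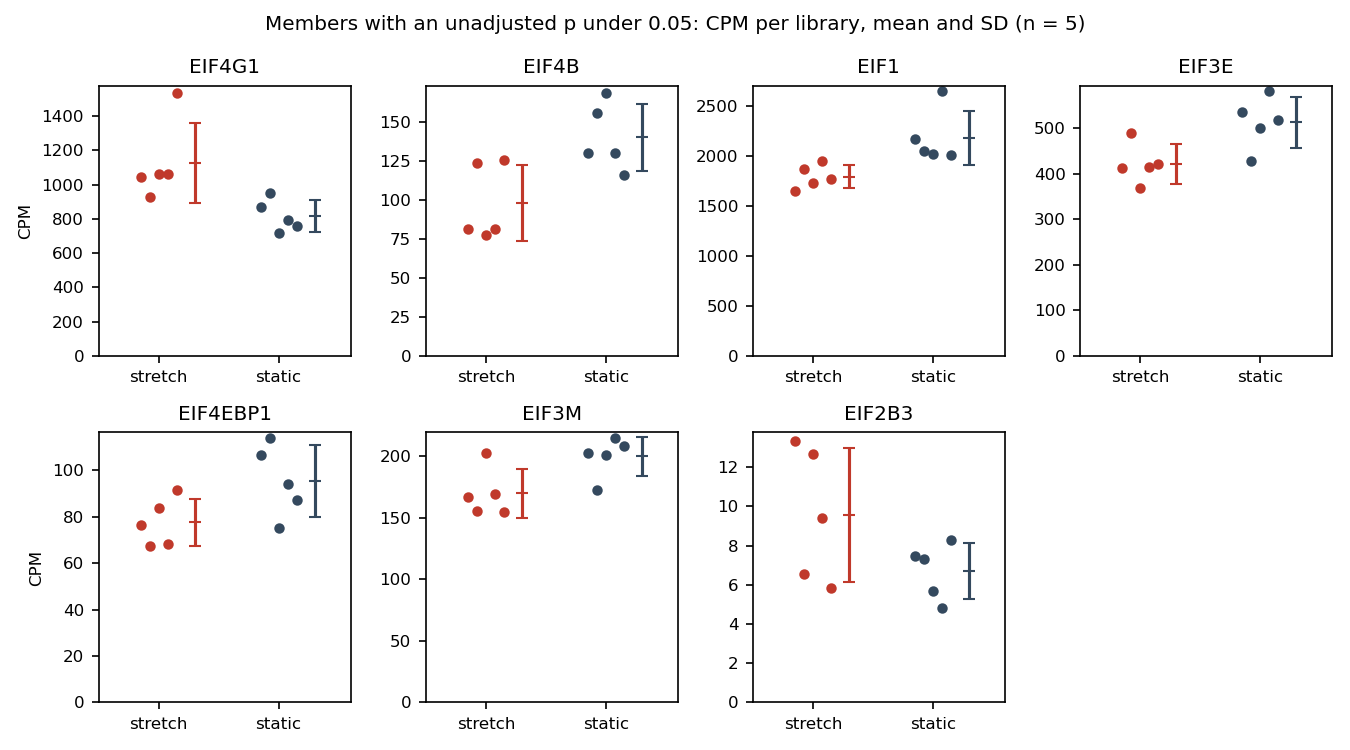
CPM per library (vertical axis, from 0) of the 7 translation factors with an unadjusted p under 0.05, each panel with the stretch libraries left of the static libraries and the mean with its SD (n = 5 each) beside the points. The panels show 1 factor without overlap, EIF1 (1655 to 1948 CPM with stretch medium and 2012 to 2651 CPM with static medium), and stretch 10 at 1536 CPM for EIF4G1.

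The 4E-BPs hold EIF4E away from EIF4G until mTORC1 phosphorylates them. EIF4EBP1 (ENSG00000187840, chr8:38030341-38060365, plus strand), the best known of them, had 76.5, 67.5, 83.9, 68.1 and 91.4 CPM with stretch medium and 107, 114, 75.0, 94.1 and 87.2 CPM with static medium. Stretch 4 and stretch 8 were below every static library, and static 1, static 3 and static 7 above every stretch library, with overlap between. The means were 77.5 ± 10.3 CPM with stretch medium and 95.4 ± 15.4 CPM with static medium (SD, n = 5 each), with a log2 fold change of -0.30 ± 0.13 (95% interval -0.57 to -0.026) and an adjusted p of 0.269 by edgeR's quasi-likelihood test. EIF4EBP2, a paralog with the same function, had 199.8, 226, 296, 246 and 271 CPM with stretch medium and 236, 208, 238, 202 and 279 CPM with static medium. The EIF4EBP2 groups overlapped (0.091 ± 0.12), and EIF4EBP3 was at 0.095 ± 0.13 with an overlapping read-through gene, ANKHD1-EIF4EBP3, that can share its counts.

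Subunit joining is carried by EIF5, which triggers GTP hydrolysis on EIF2, and EIF5B, which brings in the large subunit. EIF6 keeps free large subunits from joining too early. EIF5B had 435, 524, 457, 478 and 512 CPM with stretch medium and 556, 461, 439, 420.4 and 398 CPM with static medium. EIF6 had 180.3, 155, 168, 174 and 142 CPM with stretch medium and 157, 161, 126, 198 and 109 CPM with static medium. Both overlapped, with static 1 the highest library for EIF5B and static 7 for EIF6. Their log2 fold changes were 0.082 ± 0.11 for EIF5B and 0.13 ± 0.14 for EIF6 (adjusted p = 0.737 for EIF5B and 0.688 for EIF6, edgeR's quasi-likelihood test). EIF5 was at -0.11 ± 0.16.

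EIF5A, which carries the modified lysine hypusine and helps ribosomes through difficult stretches, is named as an initiation factor but acts mainly in elongation and termination. Its levels were 1731, 2190.4, 2591, 2279 and 2485 CPM with stretch medium and 2355, 2163, 2046, 1984 and 1957 CPM with static medium. Stretch 6 and stretch 10 were above every static library and stretch 2 below every one, and the log2 fold change was 0.10 ± 0.11 (adjusted p = 0.672, edgeR's quasi-likelihood test). The paralog EIF5A2 had 23.1, 34.6, 18.4, 25.2 and 23.3 CPM with stretch medium and 30.8, 26.6, 34.0, 28.5 and 30.5 CPM with static medium. For EIF5A2, 4 stretch libraries were below every static library and stretch 4 was above all of them. Its log2 fold change was -0.27 ± 0.16 (adjusted p = 0.401, edgeR's quasi-likelihood test) and -0.42 without stretch 4.

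Elongation factors did not separate the groups. EEF2, which moves the ribosome along the message, had 2393, 2345, 3518, 3011 and 3052 CPM with stretch medium and 2579, 3119, 3048, 2382 and 2653 CPM with static medium. The stretch libraries held both the highest level (stretch 6) and the lowest (stretch 4). EEF2 had a log2 fold change of 0.055 ± 0.12 (adjusted p = 0.857, edgeR's quasi-likelihood test), which was -0.027 without stretch 6. EEF2K, the kinase that switches EEF2 off, had 53.4, 48.7, 63.7, 62.5 and 49.2 CPM with stretch medium and 45.3, 45.5, 50.3, 48.9 and 51.8 CPM with static medium. Stretch 2, stretch 6 and stretch 8 were above every static library. EEF2K was at 0.20 ± 0.12 on the log2 scale (adjusted p = 0.398, edgeR's quasi-likelihood test).

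The EEF1 class comprises the tRNA carriers EEF1A1 and EEF1A2 and the subunits of their exchange complex, EEF1B2, EEF1D and EEF1G. EEF1B2, an exchange subunit, had 349, 368, 492, 425 and 377 CPM with stretch medium and 431, 361, 439, 592 and 484 CPM with static medium. Static 7 was the highest library, stretch 2 the lowest, and the groups overlapped, with a log2 fold change of -0.20 ± 0.13 (adjusted p = 0.475, edgeR's quasi-likelihood test). EEF1G, the structural subunit, had 1518, 1330.2, 1496, 1564 and 1532 CPM with stretch medium and 1579.6, 1510.4, 1635, 1138 and 1467 CPM with static medium. For EEF1G static 7 was the lowest library, so the log2 fold change of 0.022 ± 0.10 was -0.057 without it. EEF1D was at 0.028 ± 0.10. EEF1A2, the carrier known from muscle and neurons, had 4.53 to 7.51 CPM with stretch medium and 4.70 to 9.67 CPM with static medium, a log2 fold change of -0.33 ± 0.22. The median over the 4 tested was -0.087, with 2 above zero and 2 below, and its sign differed between settings. It was 0.025 with no filter on low counts, 0.014 with at least 50 counts in 5 libraries, 0.019 with pseudogene counts added, and between 0.010 and 0.030 without any 1 of stretch 2, stretch 4, static 1 and static 3. The genes in these medians were not always the same 4. With no filter EEF1A1 was counted as well, and the median was the value of EEF1G itself. The sign changes are therefore not read as shifts of the same genes.

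EEF1A1, the main carrier and known as one of the most abundant mRNAs of growing cells, was the only factor that did not pass the filter on low counts. It held 0, 0, 19, 20 and 14 counts with stretch medium and 7, 0, 2, 0 and 18 counts with static medium, at most 2.93 CPM by plain library totals. The table held 11 separate entries named as its pseudogenes. Reads of near-identical copies can be split in counting, so the level of EEF1A1 is uncertain here and no fold change is given. How the counting assigned these reads was not tested.

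Some of these factors are known to be made from TOP messages, and the first bases of some factors are given here. Promoter sequences from RefSeq (GRCh38.p14) matched 45 of the 54 factors, with 61 annotated starts. Windows of 30 bases, from 10 bases before the annotated start to 20 from the start on, are printed in the direction of transcription. Capitals mark a run of at least 5 pyrimidines (C or T) that opens with C exactly at the annotated start. The first 6 windows below show such a run. The last 3 belong to EIF4G1, EIF1 and EIF2B3, which had an unadjusted p under 0.05 and show none. EIF3E and EIF4EBP1, also with an unadjusted p under 0.05, had no window.
EIF4B (chr12:53006446-53006475, plus strand): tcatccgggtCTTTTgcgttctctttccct
EIF3M (chr11:32583821-32583850, plus strand): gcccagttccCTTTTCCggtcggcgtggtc
EIF3F (chr11:7987327-7987356, plus strand): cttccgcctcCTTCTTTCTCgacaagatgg
EEF1B2, second of 2 starts (chr2:206159885-206159914, plus strand): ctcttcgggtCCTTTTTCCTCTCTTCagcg
EEF2 (chr19:3985444-3985473, minus strand): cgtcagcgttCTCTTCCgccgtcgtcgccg
EEF1A1 (chr6:73521013-73521042, minus strand): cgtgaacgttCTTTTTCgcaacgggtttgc
EIF4G1, first of 3 starts (chr3:184314596-184314625, plus strand): gcggggagccggaaatggttgtggactacg
EIF1 (chr17:41688875-41688904, plus strand): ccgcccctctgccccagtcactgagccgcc
EIF2B3 (chr1:44986576-44986605, minus strand): gctgtcagtcagaggcggcgtggagatcgc

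The run was found at 12 of the 61 starts of the factors (19.7%), against 1429 of 35116 RefSeq starts in all (4.07%), searched on the transcribed strand. The 12 factors with it were EEF1A1, EEF1B2, EEF2, EIF2A, EIF2D, EIF2S3, EIF3D, EIF3F, EIF3K, EIF3M, EIF4A2 and EIF4B. Over the 11 of them that were tested the median log2 fold change was -0.12, with 8 below zero and 3 above (EEF2, EIF4A2 and EIF3K), and 2 of the 11 (18.2%, beside 16.4% of all genes tested) had an unadjusted p under 0.05 (EIF4B and EIF3M, both lower with stretch medium). Without EIF2A, whose fold change is not read, the median was -0.11 with 7 below zero and 3 above, and ran from -0.14 to -0.071 with 1 library left out. This setting was added after seeing the data. The 33 factors with a window and no such run had a median of 0.028, with 14 below zero and 19 above. At an unadjusted p under 0.05, 1 of the 33 was lower and 2 were higher (9.09% in all). With 1 library left out in turn the medians ran from -0.21 to -0.071 over the factors with the run, and from -0.011 to 0.073 over the 33 without it. The first range counts EEF1A1 in any fit where it passed the low-count filter, so it may not be over the same 11 throughout. The difference between these medians was not tested. A match is a run of letters at an annotated start, not a measured site, and its absence says only that the letters are not in that window.

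A list of 10 factors known to be made from TOP messages, named from general knowledge, held EEF1A1, EEF1A2, EEF1B2, EEF1D, EEF1G, EEF2, EIF3E, EIF3F, EIF3H and EIF4B. Of these, 6 had a window and 5 the run, EEF1G being the exception. Over the 9 tested the median log2 fold change was -0.20 (3 above zero and 6 below), beside -0.032 for the other 44 factors (21 above and 23 below). Their mean log2 CPM, centred over the 10 libraries, was -0.19, -0.011, -0.091, -0.15 and 0.014 with stretch medium and 0.094, 0.065, 0.15, 0.047 and 0.076 with static medium. Stretch 10 and stretch 4 came closest to the static libraries, and static 7 was the lowest of the static ones. The median was -0.075 without static 7, in a fit that may also count EEF1A1. These members were chosen with earlier results known, so the values are a description.

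**Figure D5:**
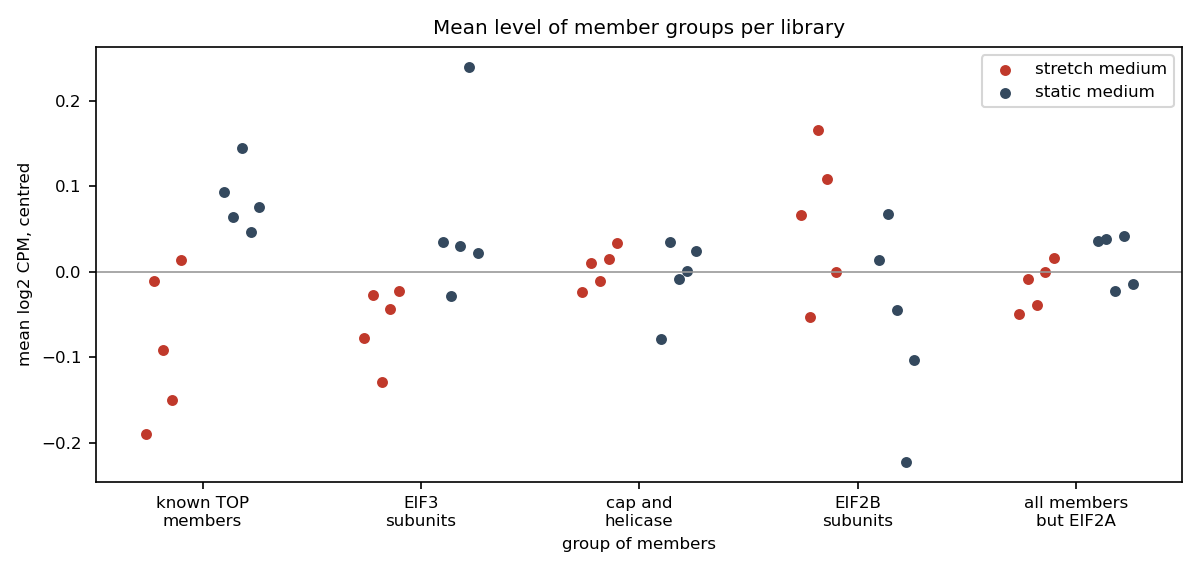
Mean log2 CPM of 5 groups of translation factors per library, centred over the 10 libraries (vertical axis), with stretch medium left of static medium in each pair of columns. The factors from TOP messages lie between -0.19 and 0.014 with stretch medium and between 0.047 and 0.15 with static medium, and static 7 stands apart at 0.24 among the EIF3 subunits.

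Of 64 other genes that act on or beside these factors, listed by textbook role, 56 were tested and 0 passed an adjusted p of 0.05 by edgeR's quasi-likelihood test. At an unadjusted p under 0.05, 5 were higher and 7 lower with stretch medium (21.4% in all, beside 8.08% higher, 8.37% lower and 16.4% in all over the genes tested). The median log2 fold change was -0.054 (26 above zero, 30 below). For 2 of the 56 the groups did not overlap, ETF1 and RHEB of the mTORC1 list, both lower. Over all genes tested that share was 3.72% (1.98% lower). The lists below are too short for their own counts to be read against those shares. Among the kinases and phosphatases of initiation (8 tested, 1 higher and 2 lower), PPP1R15A, the phosphatase subunit that restores EIF2 after stress, averaged 29.5 ± 8.51 CPM with stretch medium and 19.6 ± 5.12 CPM with static medium (SD, n = 5 each), a log2 fold change of 0.58 and an adjusted p of 0.192 by edgeR's quasi-likelihood test. In PPP1R15A, 4 stretch libraries were above every static library and stretch 4 was not. IMPACT, an inhibitor of the EIF2 kinase GCN2, was at -0.38, or at -0.18 without static 7, its highest library.

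In the mTORC1 list (11 tested, 1 higher and 2 lower), LARP1, the protein that binds the caps of TOP messages, averaged 157 ± 21.3 CPM with stretch medium and 124 ± 15.2 CPM with static medium (SD, n = 5 each), with a log2 fold change of 0.35 (adjusted p = 0.169) by edgeR's quasi-likelihood test. PDCD4, an inhibitor of EIF4A, averaged 144 ± 19.1 CPM with stretch medium and 182 ± 28.8 CPM with static medium (SD, n = 5 each), a log2 fold change of -0.34. RHEB, the other lower gene of the list, was at -0.19 (adjusted p = 0.297, edgeR's quasi-likelihood test). Of the poly(A)-binding and adaptor genes (5 tested, 1 higher and 1 lower), PAIP1, which links the poly(A)-binding protein to EIF4A, averaged 97.8 ± 25.4 CPM with stretch medium and 141 ± 22.4 CPM with static medium (SD, n = 5 each). PAIP1 had a log2 fold change of -0.53 and an adjusted p of 0.139 (edgeR's quasi-likelihood test), and EIF4ENIF1, the carrier of EIF4E into the nucleus, was at 0.26.

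ETF1, the release factor that reads stop codons, had 46.4, 45.0, 34.9, 41.4 and 38.2 CPM with stretch medium and 49.5, 58.7, 70.7, 63.3 and 60.4 CPM with static medium. All 5 stretch libraries were below all 5 static libraries, and the log2 fold change was -0.56 ± 0.12 (95% interval -0.82 to -0.30). The adjusted p was 0.0903 by edgeR's quasi-likelihood test and 0.00576 by DESeq2. It was the 1 gene lower at an unadjusted p under 0.05 among the 7 termination and recycling genes tested, and GSPT2, a partner of ETF1, was at -0.23. The helicases and scanning aids (3 tested, with DDX3X at 0.21 and DHX29 at -0.072) and the mitochondrial translation factors (10 tested, median -0.14, with MTRFR at -0.23 and MTIF2 at -0.29) had 0 genes at an unadjusted p under 0.05. The enzymes that modify these factors (12 tested, 2 higher and 1 lower) had a median of -0.066, with 5 above zero and 7 below. DPH2, which helps make diphthamide on EEF2, was at 0.46, and DOHH, which completes hypusine on EIF5A, was at 0.51. The lower gene was EEF1AKMT3 at -0.41. Adjusted p was 0.247 for DPH2, 0.267 for DOHH and 0.276 for EEF1AKMT3 (edgeR's quasi-likelihood test).

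The cytosolic ribosomal proteins, whose messages are also of the TOP kind, had 57 of 74 tested genes below zero and a median of -0.11. Of these, 2 were higher and 14 lower at an unadjusted p under 0.05 (21.6% in all, beside 8.08% higher, 8.37% lower and 16.4% in all over the genes tested), and 0 passed the adjusted threshold by edgeR's quasi-likelihood test. DESeq2 passed 4, all lower, beside 2.84% of the genes it gave an adjusted p. For 5 of the 74 the groups did not overlap, all lower, beside 1.98% lower and 3.72% in all over the genes tested. The mean log2 CPM of the 74 genes, centred over the 10 libraries, was -0.28, -0.065, -0.015, 0.059 and 0.0068 with stretch medium and 0.032, -0.013, 0.027, 0.19 and 0.063 with static medium. Stretch 2 and static 7 stood apart from the rest, and the median was -0.058 without stretch 2 and -0.084 without static 7. The 2 with the smallest p were RPL5 at -0.51 and RPL8 at -0.55. RPL21, 1 of the 2 higher genes, was far from the others at 4.15 ± 1.19 (SE). It raises the mean log2 CPM of the stretch libraries relative to the static ones. The pseudogene entries RPL21P119 and RPL21P53 were each at 0 in 4 libraries, and how reads of these copies were assigned was not tested.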

How the data were processed

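RNA of 10 MRC5 libraries was made into Ion AmpliSeq transcriptome libraries, per the labels' protocols. The authors deposited raw whole-number counts for each Ensembl gene, not scaled. The submitters' processing notes name fastp 0.20.1, Salmon 1.9 and the build hg38/GRCh38. What each tool did, which annotation was used, strand handling and rounding were not given in the sources used here. Groups came from the sample titles. Symbols came from a reference list of gene names (13831 identifiers named, 223 not), and gene types and positions from GENCODE release 29.

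Genes were kept with edgeR 4.0.16 (R 4.3.3) by filterByExpr (minimum count 10, minimum total 15), given TMM scale factors, and compared between stretch and static medium with glmQLFTest (quasi-likelihood) over all 10968 genes kept, with p-values adjusted by Benjamini-Hochberg (threshold 0.05). The script was tested on simulated data. CPM use TMM-scaled totals, and log2 CPM a prior count of 2. The chi-square per degree of freedom between libraries of a group was 6.05 at the least and 25.1 at the most, so none was taken as a second deposit. Totals of 4231653 to 8455073 counts set the precision.

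The members and lists were chosen with earlier results of these data known. Named were the members with an unadjusted p under 0.05 or without overlap between groups, the member of each class with the smallest p and the one with the highest mean CPM, the 2 smallest p-values of each other list, and members removed by the filter. All further members and list genes were named with their values in view. Alternatives were limma-voom (limma 3.58.1), DESeq2 1.42.0, its size factors or plain library totals in edgeR, no low-count filter or one of at least 50 counts in 5 libraries, thinning to the smallest total, counts of 21 pseudogene entries added to their members, and each library left out.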

Additional observations from a re-analysis of the deposited data

Results flagged for a closer look

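Each group of 5 libraries was examined for a lone library in the 20 named factors, 40 groups in all. A library was set aside for a closer look where its gap to the nearest other library exceeded 0.71 of the group's range, Dixon's value for 5 samples. That limit picks out about 1 in 20 groups by chance, and 3 of 40 were picked out. EIF4G1, the EIF4F scaffold, stood at 1536 CPM in stretch 10, while the other 4 stretch libraries held 929.9 to 1064 CPM (gap 0.778 of the range). EIF4A1, the helicase, stood at 3061 CPM in the same library, against 2455 to 2626 CPM in the other 4 (0.718 of the range). EIF1 stood at 2651 CPM in static 7, against 2012 to 2169 CPM in the other 4 static libraries (0.755 of the range). Static 7 is also the library in which 7 of 13 EIF3 subunits were highest.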

How the results depend on the processing

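Of the results with an alternative setting, the log2 fold changes of EIF4G1, EIF4B, EIF1, EIF3E, EIF3M, EIF4EBP1 and EIF2B3 kept their direction in every one that was run. Under DESeq2, 275 genes in all and 1 factor passed the threshold (EIF4G1, log2 fold change 0.47, adjusted p = 0.0383), and under limma-voom 1 gene and 0 factors passed. Factors higher at an unadjusted p under 0.05 numbered 1 with library totals, with limma-voom and after thinning, and lower ones 3 after thinning. The EEF1 median was 0.025 with no filter, 0.014 with at least 50 counts in 5 libraries and 0.019 with pseudogene counts added. The genes counted in that median differed between these settings and the main fit. With 1 library left out in turn, genes past the threshold numbered 0 to 39 (39 without stretch 4, 2 without stretch 6, 1 without stretch 10), while factors past it stayed at 0. In those fits factors higher numbered 1 to 2, lower 3 to 7 and without overlap 1 to 4. The medians ran from -0.059 to -0.0048 over all factors, -0.14 to 0.080 in start-site scanning, -0.0034 to 0.11 in EIF2B, -0.18 to -0.070 in EIF3, -0.0084 to 0.069 in the cap and helicase class, -0.15 to 0.030 in EEF1 and -0.21 to -0.075 in the factors from TOP messages. The medians over all factors, in EEF1 and in the factors from TOP messages may count EEF1A1 in some of these fits. Of the 53 factors tested, 18 changed sign when some library was left out, none of them over 0.13 in size with all libraries. Of those, 3 were named by rule: EEF2 (-0.027 to 0.12, below zero without stretch 6), EIF4A1 (-0.011 to 0.081, below zero without stretch 10 or static 9) and EEF1G (-0.057 to 0.064, below zero without static 7). The cause was not tested. No paired analysis was run, because the labels state no pairing and the groups share no title number. Low levels limit EIF2B3, EEF1A2, EIF2D and EIF4E3, and the counts of EEF1A1 and EIF2A allow no comparison.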
